A study of Mus musculus with 4 samples.

Results

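The BCL-2 family decides at the outer mitochondrial membrane whether a cell lives or dies. Guardians such as BCL-2 and MCL-1 hold the executioners BAX and BAK inactive, and BH3-only proteins such as BIM, PUMA and NOXA bind the guardians and release or activate the executioners, which then open pores that let cytochrome c out and start the caspases. In lymphocytes the balance is set in part by transcription, with cytokines of the common gamma chain and NF-kB raising guardians and FOXO and p53 factors raising BH3-only genes. Expression of 10 members was described in ILC2s (group 2 innate lymphoid cells) sorted from mouse lung, which reside in tissue and secrete IL-5 and IL-13. The members were taken by gene name, and each of the 10 names matched 1 row among the 38697 genes of the authors' deposited table. They comprise 5 guardian genes (Bcl2, Bcl2l1, Mcl1, Bcl2a1b and Bcl2a1d), 2 executioner genes (Bax and Bak1) and 3 BH3-only genes (Bcl2l11, Bbc3 and Pmaip1).

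The study compared 2 KO samples, of genotype R5/+Nrp1f/f, with 2 WT samples, of genotype R5/+. Mice of both genotypes were C57BL/6, carried the R5 allele, which places a fluorescent reporter and Cre recombinase at the Il5 locus, and received bleomycin, a drug that injures the lung. Ages are not given in the labels. Deletion of the floxed Nrp1 gene, which encodes the co-receptor neuropilin-1, is therefore limited to cells that have switched on Il5, and WT mice carry the same Cre allele. From 3 to 4 mice were pooled for each sample. The values come from the comparison that the authors ran and deposited. It holds for each gene a normalized count averaged over the libraries, the log2 fold change and its error, and p-values. Columns of values per library carry codes that match no sample label, so no value of a single pool is given, and genotype means were derived from the mean count and the fold change. All fold changes are written as KO over WT.

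Members were first set against what unites the family. The BH3 region, the short helix through which members bind each other, was sought in each coding sequence as a leucine codon, any 3 codons, a glycine or alanine codon and an aspartate codon, read in frame. Of the 10 members, 8 held it, all with 1 match except Pmaip1, which held 2. The coding stretches around the match are shown for 7 of them because this is the feature they share across all 3 roles, with the leucine and aspartate codons in capitals (GENCODE M21 transcripts, 5′ to 3′, sense strand).
Bcl2: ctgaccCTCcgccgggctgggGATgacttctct
Bcl2l1: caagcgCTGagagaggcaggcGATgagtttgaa
Mcl1: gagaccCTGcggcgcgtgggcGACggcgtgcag
Bax: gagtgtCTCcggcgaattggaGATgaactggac
Bak1: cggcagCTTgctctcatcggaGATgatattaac
Bcl2l11: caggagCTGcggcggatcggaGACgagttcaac
Bbc3: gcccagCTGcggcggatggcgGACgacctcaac
The 2 members without a match were Bcl2a1b and Bcl2a1d, which encode near-identical forms of A1, an NF-kB-inducible guardian known from haematopoietic cells. A missing match says only that these codons do not occur in that order.

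The A1 genes are the members for which the identity of a read matters most. Bcl2a1b (ENSMUSG00000089929, mm10 chromosome 9, 89199209 to 89207827, plus strand) and Bcl2a1d (ENSMUSG00000099974, chromosome 9, 88723285 to 88731914, minus strand) have coding sequences of 519 bases that differ at 6 bases, an identity of 98.8%. Bcl2a1a, another copy on chromosome 9 that is no member, differs from Bcl2a1d at 7 coding bases and from Bcl2a1b at 11. The first 120 coding bases of these copies are shown because 7 of the 12 coding positions at which any of them differ lie there, and those positions are in capitals.
Bcl2a1b: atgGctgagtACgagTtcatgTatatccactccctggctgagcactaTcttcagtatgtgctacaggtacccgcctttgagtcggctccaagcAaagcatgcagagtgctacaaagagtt
Bcl2a1d: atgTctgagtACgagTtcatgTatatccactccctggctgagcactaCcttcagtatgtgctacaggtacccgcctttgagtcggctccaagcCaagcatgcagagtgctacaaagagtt
Bcl2a1a: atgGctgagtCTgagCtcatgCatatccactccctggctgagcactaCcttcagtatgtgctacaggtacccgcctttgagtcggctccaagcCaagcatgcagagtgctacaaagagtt
The longest run of coding bases identical in all of these copies was 217.

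Despite this likeness, the authors' deposited table lists a mean normalized count of 1168 for Bcl2a1d, 20.0 for Bcl2a1b and 20.5 for Bcl2a1a. A further copy, Bcl2a1c, was listed at 0.50, too low for an adjusted p. Of the 50-base windows of each transcript, 79.5% of those of Bcl2a1d, 79.2% of those of Bcl2a1b and 69.0% of those of Bcl2a1a also occur in transcripts of other genes. With windows of 100 bases these shares were 54.7%, 56.8% and 43.5%. In addition, 401 of the 817 exonic bases of Bcl2a1b (49.1%) lie inside exons of Gm29094, an annotated gene on the same strand. No exonic base of Bcl2a1d or Bcl2a1a lies in another gene. How reads with several matches or in overlapping exons were counted is not given in the sources used here. Counts of the A1 copies are therefore uncertain as to which copy they came from, and the part of this in their levels was not tested.

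Bak1 (ENSMUSG00000057789, chromosome 17, 27019810 to 27029009, minus strand) is the other member with a large overlap. Of its 2407 exonic bases, 614 (25.5%) lie inside exons of Ggnbp1 on the opposite strand, and neither library kit is described as marking strand. Its mean normalized count of 14.0 in the authors' deposited table was the lowest of the 10 members. Bax shares 12.2% of its exonic bases with Gm45808 on the same strand, and Bcl2 6.09% with an antisense gene, D630008O14Rik. Bcl2l1, Mcl1, Bcl2l11, Bbc3 and Pmaip1 share no exonic base with another gene.

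**Figure D1:**
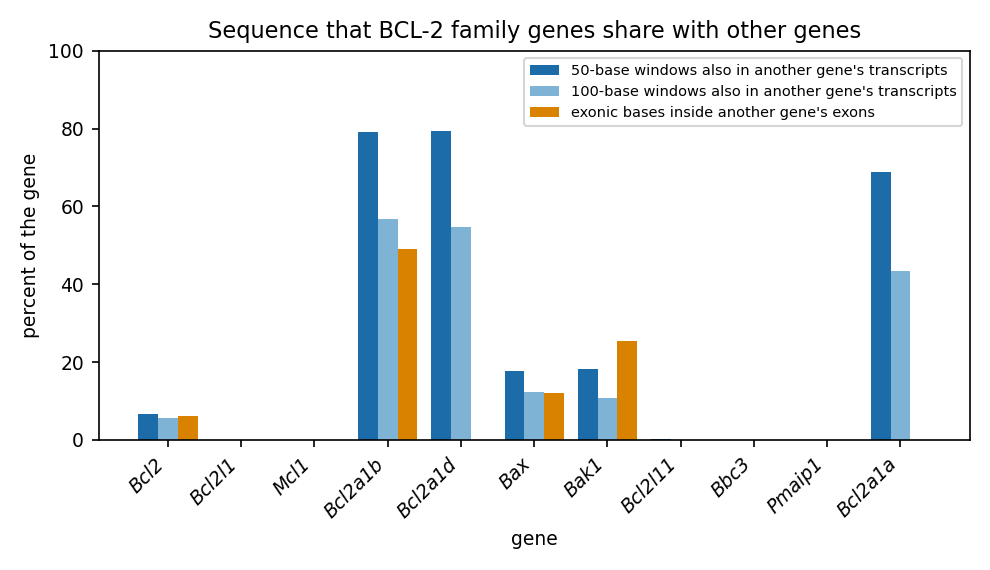
Percent of each gene (vertical axis) that is shared with other genes, for the 10 members and Bcl2a1a, as windows of 50 or 100 bases of the principal transcript found in transcripts of other genes and as exonic bases lying inside other genes' exons. Bcl2a1b and Bcl2a1d stand at 79.2% and 79.5% of 50-base windows, Bcl2a1b alone has 49.1% of its exonic bases in another gene, and Bak1 has 25.5%.

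Levels were compared between members per kilobase of exon, as mean normalized count over both genotypes. Bcl2a1d had the highest level, at 1353 counts per kb, which placed it at percentile 97.7 of the 19133 tested genes with a known exonic length. The pore-forming executioner Bax followed at 564 counts per kb. Bcl2l1, which encodes BCL-XL, stood at 500.2 counts per kb, Mcl1 at 327 and Bcl2, the founding guardian, at 318. Bcl2l11, which encodes BIM, the BH3-only protein that kills lymphocytes deprived of cytokine, had 287 counts per kb, close to the level of Bcl2. These 6 genes lay at or above percentile 89.2 of all genes. The p53-inducible BH3-only genes were lower, with Pmaip1 (NOXA) at 142 counts per kb and Bbc3 (PUMA) at 49.5. Bcl2a1b at 24.5 counts per kb and Bak1 at 5.83 were the lowest, against a median of 25.7 over all genes tested. Per kb of the principal transcript in place of all exonic bases, an alternative chosen after seeing the data, Bcl2l11 (457 counts per kb) and Bcl2 (405) stood above Mcl1 (327), and Bax reached 1025. The order of Bcl2, Mcl1 and Bcl2l11 thus depends on the length used. With no value per pool, neighbours in this order could not be tested against the spread between samples.

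**Figure D2:**
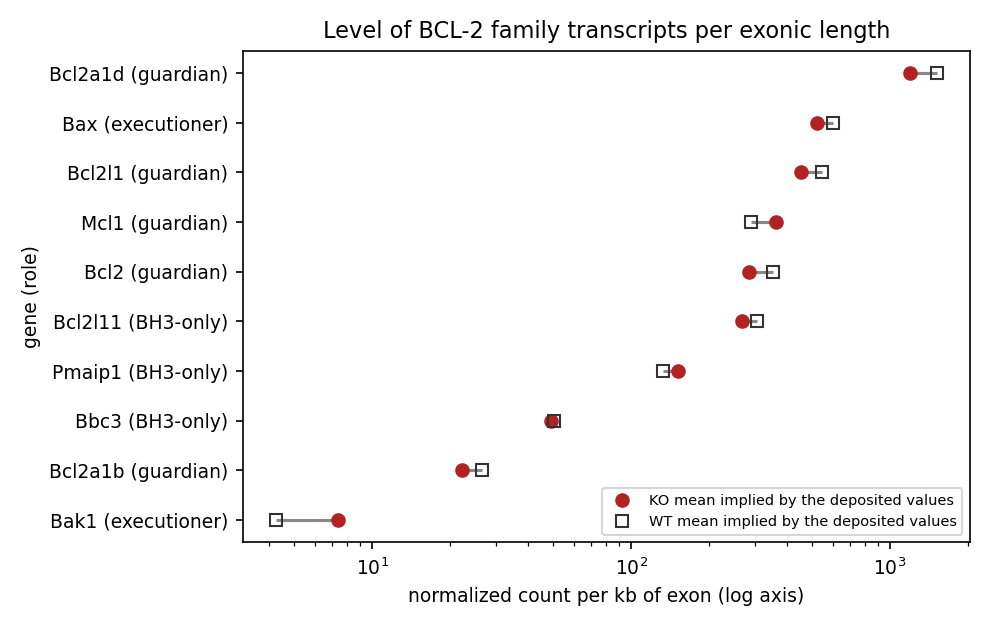
Level of each member as normalized count per kb of exon (horizontal axis, logarithmic), with filled circles for the KO mean and open squares for the WT mean, both implied by the deposited mean count and fold change, so that no error is shown. The range runs from Bak1, at 7.40 in KO and 4.25 in WT, to Bcl2a1d, at 1190.4 in KO and 1516 in WT.

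In the deposited comparison the targeted gene Nrp1 had a log2 value of -1.18 ± 0.21 (SE) in the authors' deposited table (adjusted p = 1.27e-04). The 12 ILC2 markers were all present, at mean counts of 187 to 41644. Their implied sums were 156721 counts in KO and 189471 in WT. All 12 were negative, with a median log2 fold change of -0.34, and 0 passed an adjusted p of 0.05. At an unadjusted p under 0.05, 7 of the 12 were lower, beside 21.6% of genes with a mean count of at least 1000. Against the median of the 500 genes nearest in mean count, 3 lay above and 9 below. What lowers these markers was not tested. Fold changes followed abundance. The median log2 fold change was 0.08 over all 19193 genes tested, -0.25 over the 2480 genes with a mean count of at least 1000 and 1.45 over those with 10 to 30. Of the 2480 abundant genes, 92.9% were negative and 7.1% positive, so a member is set beside genes of like mean count throughout, as the median of the 500 genes nearest to it.

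None of the 10 members passed an adjusted p of 0.05, in either direction. Over all genes of the authors' deposited table, 0.453% of those tested were called higher in KO and 0.099% lower, a background at which a list of 10 genes would seldom hold a call. At an unadjusted p under 0.05 also 0 of the 10 passed, beside 9.62% of all genes higher and 3.95% lower. Over genes with a mean count of at least 1000 these shares were 0.524% and 21.6%. By sign, 3 members (Mcl1, Bak1 and Pmaip1) were positive and 7 negative, with a median log2 fold change of -0.20. Of all genes tested 54.0% were positive and 46.0% negative, and of the abundant genes 7.1% and 92.9%. Beside genes of like mean count, 4 members lay above and 6 below. For 7 members the 95% interval from the deposited error lay within a 2-fold change either way, and for the other 3 (Bcl2a1b, Bak1 and Bbc3) it did not. All 10 intervals hold 0.

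Among the guardians, Bcl2 (ENSMUSG00000057329, chromosome 1, 106538178 to 106714274) had implied means of 2605 counts in KO and 3225 in WT. The authors' deposited table puts its log2 fold change at -0.31 ± 0.17 (adjusted p = 0.438), with a 95% interval of -0.65 to 0.03. Genes of like abundance had a median of -0.26, so the value of Bcl2 lay 0.04 below them. Bcl2l1 (ENSMUSG00000007659, chromosome 2, 152780668 to 152831728), whose product protects activated lymphocytes, had implied means of 2076 counts in KO and 2512 in WT. The authors' deposited table puts it at -0.27 ± 0.17 (adjusted p = 0.468), which is 0.01 below the median of like genes. Bcl2a1d was close to both, with implied means of 1027 counts in KO and 1308 in WT and, in the authors' deposited table, a log2 fold change of -0.35 ± 0.23 (adjusted p = 0.527). It lay 0.11 below its like genes. These 3 abundant guardians therefore carried negative values of nearly the size that abundant genes in general carried. Bcl2a1b, with 18.2 counts in KO and 21.7 in WT, had an interval of -2.52 to 2.01 and gives no usable direction.

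Mcl1 (ENSMUSG00000038612, chromosome 3, 95658788 to 95663176) was the guardian that stood apart in sign. MCL-1 is a short-lived protein on which lymphocytes depend for survival. Its implied means were 1241 counts in KO and 994 in WT. The log2 fold change in the authors' deposited table was 0.32 ± 0.21 (adjusted p = 0.529), with a 95% interval of -0.10 to 0.74. Genes of like mean count had a median of -0.24, which put Mcl1 0.56 above them. With the abundance trend removed the unadjusted p was 0.00894 and the adjusted p 0.670, and with fold changes centred on abundant genes they were 0.00741 and 0.141. In neither setting did Mcl1 pass an adjusted p of 0.05. Of all genes tested, 3.9% with the trend removed and 13.3% when centred were higher at an unadjusted p under 0.05. Its log2 fold change exceeded that of Bcl2 by 0.63, that of Bcl2l1 by 0.59 and that of Bcl2a1d by 0.67. These differences have no error of their own, since the covariance of the estimates cannot be had from the deposited columns, and they were not tested. In implied level per kb, Mcl1 stood at 1.28 times Bcl2 in KO and 0.83 times Bcl2 in WT, and made up 15.7% of the summed guardian level in KO and 10.6% in WT. Per kb of the principal transcript, Mcl1 stood at 1.00 times Bcl2 in KO and 0.65 times in WT.

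**Figure D3:**
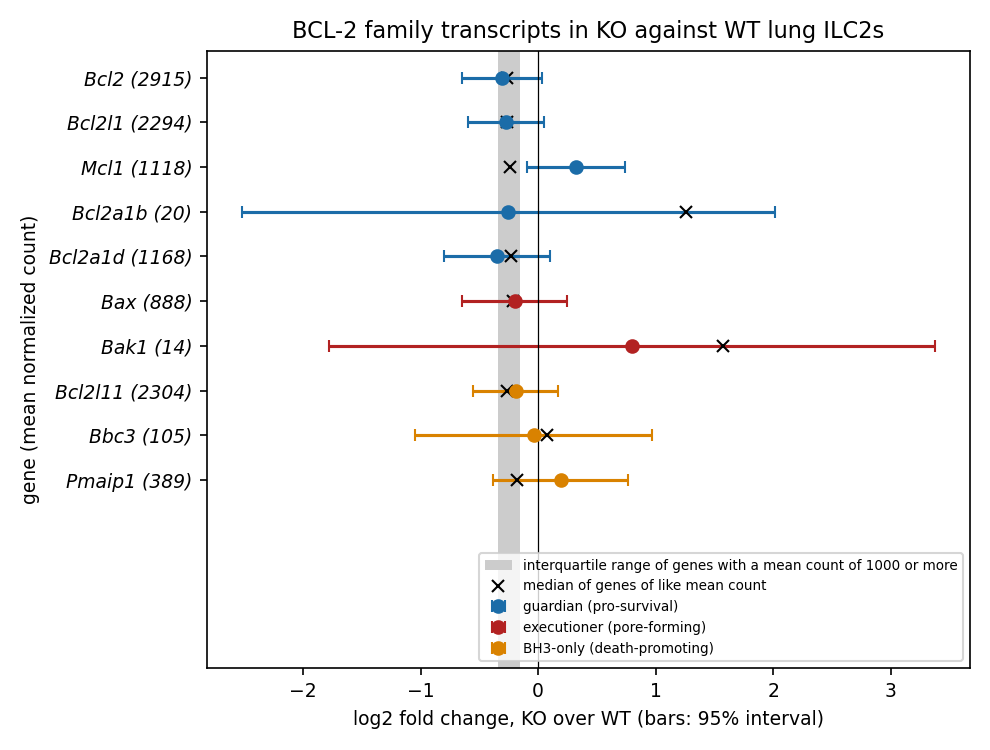
Log2 fold change of each member, KO over WT (horizontal axis), with its 95% interval, coloured by role, and with the mean normalized count beside the gene name. Crosses mark the median of the 500 genes nearest in mean count, and the grey band is the interquartile range of genes with a mean count of at least 1000. All 10 intervals cross 0. Bcl2, Bcl2l1, Bcl2a1d, Bax and Bcl2l11 sit near their crosses, and Mcl1 at 0.32 sits to the right of its cross at -0.24.

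The executioners showed no change past the test. Bax (ENSMUSG00000003873, chromosome 7, 45461697 to 45466898) had implied means of 827 counts in KO and 950.1 in WT. In the authors' deposited table its log2 fold change of -0.20 ± 0.23 (adjusted p = 0.752) was 0.01 above the median of genes of like mean count. Its interval ran from -0.65 to 0.25. Bak1 had implied means of 17.8 counts in KO and 10.2 in WT and, in the authors' deposited table, a log2 fold change of 0.80 ± 1.31 (adjusted p = 0.842). The interval of Bak1, -1.78 to 3.38, spans falls and rises of more than 2-fold, and genes of like mean count had a median of 1.57, so its value lies below theirs. With an error this wide, these values do not tell whether Bak1 changed.

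Of the BH3-only genes, Bcl2l11 (ENSMUSG00000027381, chromosome 2, 128126038 to 128162547) was the most abundant, at a mean count of 2304. The authors' deposited table gives it a log2 fold change of -0.19 ± 0.19 (adjusted p = 0.694), with an interval of -0.56 to 0.17, and it lay 0.07 above its like genes. The ratio of Bcl2 to Bcl2l11 per kb, which pairs the guardian and the killer most often set against each other in lymphocytes, was 1.06 in KO and 1.15 in WT. Per kb of the principal transcript it was 0.85 in KO and 0.92 in WT, so which of them is higher depends on the length used. The log2 fold change of Bcl2 was thus 0.12 lower than that of Bcl2l11, less than the standard error of either. Pmaip1 (ENSMUSG00000024521), whose product binds MCL-1 and A1 in particular, had implied means of 415 counts in KO and 364 in WT. The authors' deposited table has it at 0.19 ± 0.29 (adjusted p = 0.828), 0.37 above genes of like mean count. Bbc3 (ENSMUSG00000002083, chromosome 7, 16308393 to 16318205) was level between genotypes within a wide error, at 104 counts in KO and 107 in WT. Its value in the authors' deposited table was -0.04 ± 0.51 (adjusted p = 0.986), with an interval of -1.05 to 0.97.

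Summed by role per kb, the guardians had 2313 counts in KO and 2733 in WT, the executioners 532 in KO and 607 in WT, and the BH3-only genes 469 in KO and 489 in WT. Genes with a mean count of at least 1000 had a median log2 fold change of -0.25, so lower values in KO are not particular to these roles. Beside genes of like mean count the 10 members had a median difference of -0.03. The guardian sum was 2.31 times the sum of both death-promoting roles in KO and 2.49 times in WT. These ratios depend on the length used and were not computed per kb of the principal transcript. On that length Bax, Bcl2l11, Bcl2l1 and Bcl2 stood higher, while Bcl2a1d did not move. Bcl2a1d gives the largest share of the guardian sum, and no error can be attached to these sums. A lower level in such bulk RNA can come from fewer cells carrying it, less RNA per cell or the offset shared by abundant genes. These cannot be told apart, and the part of each was not tested.

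**Figure D4:**
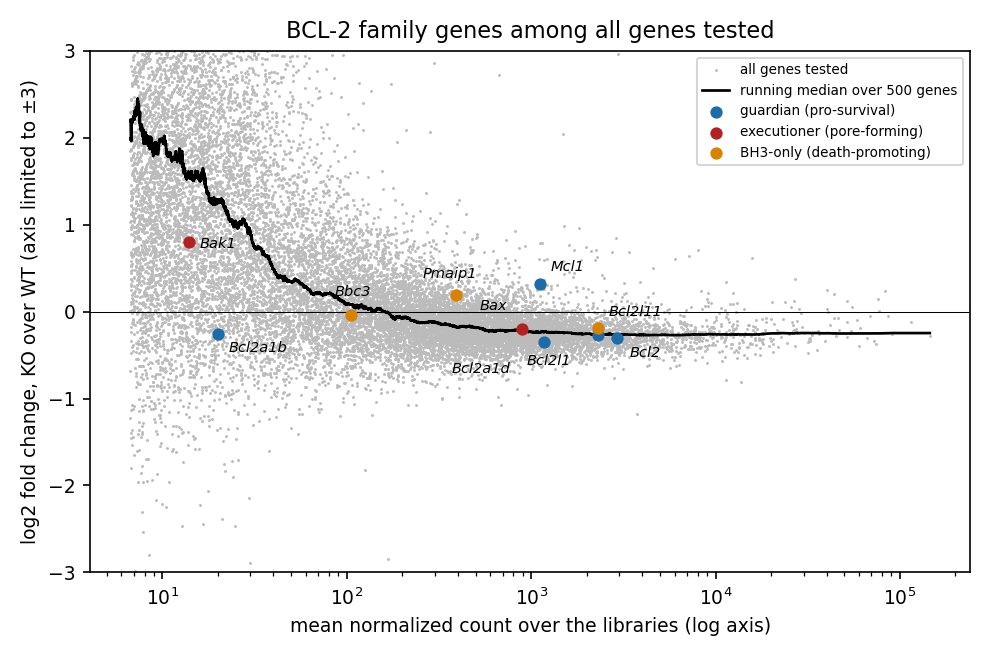
Log2 fold change, KO over WT (vertical axis, limited to ±3), against mean normalized count (horizontal axis, logarithmic) for all genes tested in grey, with the members coloured by role and the running median over 500 genes as a line. The line lies near 1.57 at the mean count of Bak1 and at -0.26 at that of Bcl2. Bcl2, Bcl2l1, Bcl2a1d, Bax and Bcl2l11 lie close to it, while Mcl1 and Pmaip1 lie above it and Bcl2a1b and Bak1 below it.

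Markers of other cells that carry BCL-2 family RNA were also present. The 9 neutrophil markers, from cells rich in A1 and MCL-1 transcripts, summed to 137 counts in KO and 143 in WT, each between 0.37 (Ly6g) and 34.4 (S100a9) in mean count in the authors' deposited table. The 7 macrophage and monocyte markers summed to 10025 counts in KO and 8878 in WT, most of it Lyz2, with mean counts of 13.8 to 8981. The 7 lung epithelial markers summed to 13219 counts in KO and 7661 in WT, with mean counts of 79.7 to 6032. The 8 B and plasma cell markers summed to 2972 counts in KO and 3513 in WT, with mean counts of 13.6 to 2421. That sum is mostly Ighm, which stood at -0.51 ± 0.18 in the authors' deposited table, while 6 of the 8 markers were positive and the median log2 fold change was 1.54, none of them past the test. The 8 T cell markers summed to 5553 counts in KO and 7703 in WT, with mean counts of 3.84 to 2938. Most of that sum was Trbc1, Trbc2 and Cd3g. In the authors' deposited table Cd3d, Cd3e, Cd4 and Cd8a had mean counts of 18.1, 51.8, 13.8 and 3.84. Of the 8 markers Cd3g passed as lower in the authors' deposited table, at -0.96 ± 0.24 (adjusted p = 0.0292), and no other marker of these lists passed. No marker in these lists was at 0. Macrophage and epithelial markers were higher by these sums in KO, as was Mcl1, and most B and plasma cell markers were positive. The largest contributors, Lyz2 (0.14 ± 0.20) and Sftpc (0.60 ± 1.44), had values within 1 error of 0 in the authors' deposited table. At an unadjusted p under 0.05, 1 of the 7 macrophage and 2 of the 7 epithelial markers were higher. These were Csf1r (1.12 ± 0.55), Scgb1a1 (2.04 ± 1.00) and Krt18 (2.00 ± 0.71). All 7 macrophage markers were positive, with 5 above and 2 below genes of like mean count. Of the epithelial markers 6 were positive and 1 negative, and all 7 lay above genes of like mean count. Genes with a mean count of 10 to 30 had a median of 1.45, and 6 of the 8 B and plasma cell markers lay above genes of like mean count. The part of other cells in the values of the members was not tested.

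The rest of the apoptosis pathway was read from 9 lists holding 74 genes, of which 70 had an adjusted p. As with the members, 0 of the 70 were called in either direction, and at an unadjusted p under 0.05 there were 0 higher and 9 lower. Over all genes tested these shares were 9.62% higher and 3.95% lower at the unadjusted threshold, and over genes with a mean count of at least 1000 they were 0.524% and 21.6%. The median mean count of the 70 genes was 543. Their median log2 fold change was -0.19, close to the -0.20 of the 10 members, with 33 genes above and 37 below genes of like mean count. Hrk, Bcl2l14, Bcl2l10 and Bcl2a1c were too low for an adjusted p.

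Close relatives of the members were mostly scarce. The guardian Bcl2l2 (BCL-W) had a mean count of 34.2 and stood at 0.74 ± 0.87, and Bcl2a1a stood at -0.015 ± 1.11, in the authors' deposited table. Among other executioners and BH3-only genes, Bok was at 2.26 ± 1.20 with a mean count of 21.4, Bik at -0.56 ± 0.51, Bad at -0.34 ± 0.36 and Bmf at 0.27 ± 0.84 in the authors' deposited table. Divergent relatives included the mitophagy receptor gene Bnip3l at -0.16 ± 0.19, with Bcl2l13 at -0.18 ± 0.23, Bcl2l12 at 0.26 ± 0.81 and Bcl2l15 at 0.14 ± 0.95 in the authors' deposited table.

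Downstream of the executioners, in the authors' deposited table, Apaf1, the scaffold that cytochrome c assembles into the apoptosome, stood at -0.36 ± 0.17 (adjusted p = 0.329). Dffa, the inhibitor of the caspase-activated nuclease, was at -0.35 ± 0.29 and the channel gene Vdac2 at -0.22 ± 0.20 in the authors' deposited table. Of the inhibitors of apoptosis, Birc3 had the highest mean count, 6669, and stood at -0.28 ± 0.15, with Birc2 at -0.33 ± 0.18, Birc6 at -0.28 ± 0.17 and their antagonist Diablo at -0.34 ± 0.25 in the authors' deposited table. In the death receptor branch the TNF receptor gene Tnfrsf1a was at 0.74 ± 0.43, the caspase-8 inhibitor Cflar at -0.38 ± 0.24, Casp8 at -0.28 ± 0.20 and Tradd at -0.45 ± 0.35 in the authors' deposited table.

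Genes that act on members were likewise without a call. Of genes for MCL-1 turnover, the deubiquitinase gene Usp9x was at -0.24 ± 0.19, the ubiquitin ligase genes Huwe1 at -0.13 ± 0.17 and Fbxw7 at 0.28 ± 0.39, and the co-chaperone Bag3 at -0.0042 ± 0.31 in the authors' deposited table. Of 15 transcription factor and p53 feedback genes, Stat3 (-0.37 ± 0.16), Stat5b (-0.46 ± 0.20), the NF-kB subunit Rel (-0.31 ± 0.14) and Myc (-0.35 ± 0.16) had the smallest p-values of the authors' deposited table, adjusted to 0.256 to 0.303. In the authors' deposited table Trp53, which drives Bbc3 and Pmaip1, stood at -0.21 ± 0.21 (adjusted p = 0.720). All 10 genes of the survival receptor list were negative, as were 92.9% of genes with a mean count of at least 1000. The median log2 fold change of the list was -0.35, and 4 of the 10 lay above and 6 below genes of like mean count. Pik3cd, the lymphocyte PI3-kinase subunit, was nearest to the threshold in the authors' deposited table, at -0.54 ± 0.17 with an adjusted p of 0.0953. In the same authors' deposited table Il2rg, the common gamma chain, stood at -0.42 ± 0.17 (adjusted p = 0.216), beside the IL-33 receptor gene Il1rl1 at -0.42 ± 0.14 and the IL-7 receptor gene Il7r at -0.40 ± 0.17.

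**Figure D5:**
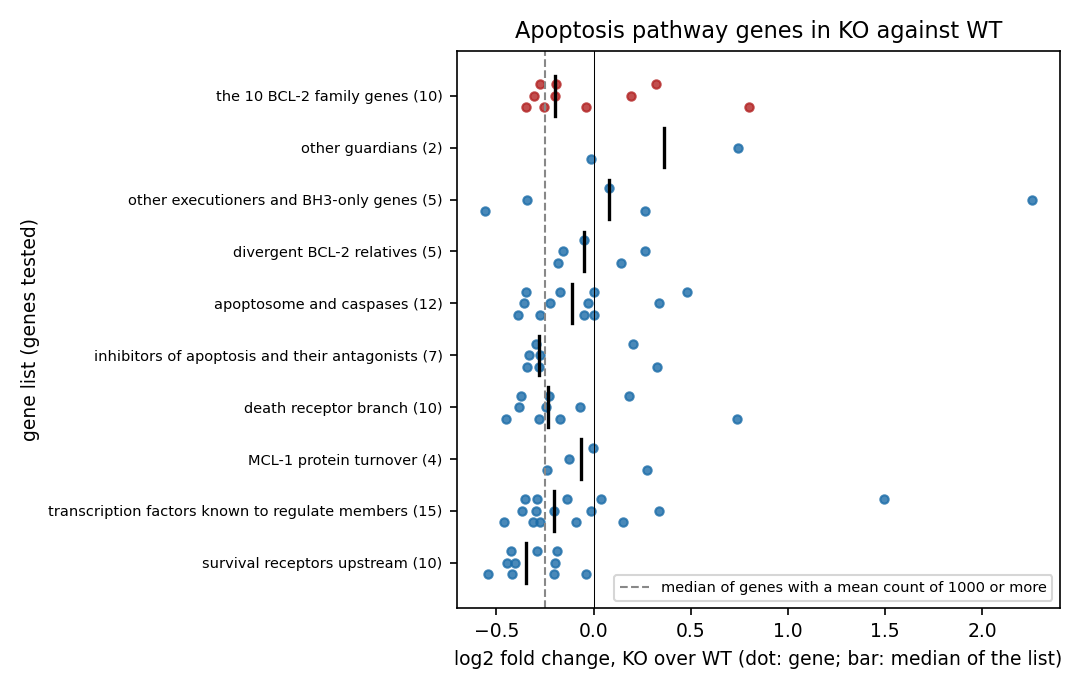
Log2 fold change, KO over WT (horizontal axis), of each tested gene in the 10 BCL-2 family members (top row) and the 9 pathway lists, with the number of genes tested in brackets. Dots are genes, bars are list medians, and the dashed line marks -0.25, the median of genes with a mean count of at least 1000. The median of the members is -0.20, and no gene drawn passed an adjusted p of 0.05.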

How the data were processed

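RNA of lung ILC2s was profiled in 2 KO and 2 WT pools. Per the labels' protocols, full-length cDNA was made with SMART-Seq HT. Per the submitters' processing notes, HISAT2, Cufflinks and mm10 were named, without roles. Which counter, annotation and filters were used is not given in the sources used here. For each gene the authors deposited a signal (the normalized count averaged over all libraries), the log2 fold change and its error, the score that is their quotient, and p-values before and after adjustment. Per the file headers, the headings match DESeq2 output. Another 8 columns of values per library match no label and were not used. The labels name 4 samples, and how the 8 columns relate to them could not be told. Which libraries entered the authors' test was therefore not checked. Depth per pool, replicate spread and refits could not be had, and the planned count models were replaced by the authors' test. Nothing says that pools came from separate experiments, so p-values cannot be taken to cover the spread between experiments. They rest on the deposited errors, and the spread of each gene between these pools could not be seen.

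The statistic equals the fold change over its error within 5.35e-08. No header states the numerator. Because the table is named with WT ahead of KO, the sign was turned, and with the opposite reading every direction would turn, Nrp1 included. Of 38697 genes, 19193 with a mean count of at least 6.71 have an adjusted p. Intervals are the fold change plus or minus the normal quantile times its error, at 95%. Genotype means assume equal weight of the genotypes. Alternatives changed the filter (none, or a mean count of at least 50), the threshold (0.1), the centring (genes with a mean count of at least 1000) and the abundance trend (running median over 500 genes). All but the threshold were also run on simulated data with planted changes. Lengths, overlaps and sequences came from GENCODE M21, the mm10 annotation. A principal transcript was chosen by APPRIS, CCDS and length. Python 3.11.15, pandas 2.3.3 and scipy 1.17.1 were used.

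The members and lists were chosen with earlier results of these data known. Named genes were the members, Nrp1 and, of each pathway list, genes past the threshold and up to 4 with the smallest p. Trp53 was named in addition, after its value was seen. A gene that this rule names is not reported here.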

Additional observations from a re-analysis of the deposited data

How the results depend on the processing

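None of the 10 members was called at an adjusted p of 0.05 or 0.1 in any setting run. At an unadjusted p under 0.05, Mcl1 was the 1 member to pass, when centred and with the abundance trend removed. Of all genes tested, 13.3% and 3.9% were higher at that threshold in those settings. These shares take in scarce genes, and shares over abundant genes were not computed in those settings. Values are log2 fold changes, KO over WT. Centred on abundant genes, Bax (0.051), Bcl2l11 (0.059) and Bbc3 (0.21) turned positive, and with the abundance trend removed Bax (0.010) and Bcl2l11 (0.074) turned positive and Bak1 (-0.77) negative. By construction, centring adds 0.25 to every value. Removing the trend subtracts the median of like genes. The other members kept their sign in both settings. Over the whole table, genes called higher in KO numbered 87, against 21 without a filter, 22 with a mean count of at least 50, 225 when centred, 19 with the trend removed and 266 at an adjusted p under 0.1. Those called lower numbered 19, against 2 without a filter, 13 with a mean count of at least 50, 2 when centred, 2 with the trend removed and 40 at an adjusted p under 0.1. In the pathway lists 1 gene, Pik3cd, was called lower at an adjusted p under 0.1, and none otherwise. With a mean count of at least 50, Bcl2a1b and Bak1 could not be tested. Per kb of the principal transcript, the levels of Bax, Bcl2l1, Bcl2l11, Bcl2 and Bbc3 were higher (1025, 893, 457, 405 and 58.0 counts per kb). No paired analysis was possible because the values per library match no sample label, and for the same reason no replicate was left out and no DESeq2 or edgeR refit was run. The low counts of Bak1 and Bcl2a1b limit what can be said of them.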
